A study of Mus musculus with 12 samples.

Results

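Interferon-stimulated genes, the genes that cells switch on when they sense interferon, were followed in mouse livers that differed in genotype and diet. The set was a list of 36 gene symbols, and a gene counted as measured where a probe set was annotated to that symbol alone. By this rule 32 of the 36 were measured, of 22180 genes in all. Ifi44, Oas1a, Ifi27l2a and Gbp2 had no such probe set and are not analysed here.

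Livers came from male mice that were 8 weeks old when their diets began, and each was hybridised to 1 Affymetrix array after 9 weeks of feeding. The 4 groups held 3 mice each, which the labels call biological replicates: Lats2-CKO mice on the high-cholesterol (Paigen) diet, with 1.25% cholesterol, Lats2-CKO mice on a normal chow diet without cholesterol, and wild-type (WT) mice on each of the same diets. They are called cholesterol-fed and chow-fed here. Lats2 is a kinase known from the Hippo pathway, and the labels also call the mutant Lats2-KO. The Cre driver, the cells it acts in and the deleted exons are not given in the sources used here.

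Values are log2 expression after RMA, so a difference of 1 is a 2-fold change. All 7 hepatocyte markers were high on the 12 arrays, from 10.31 for the lowest Hnf4a value to 13.37 for the highest Alb value. Lats2 ranged from 4.62 to 4.99 in cholesterol-fed Lats2-CKO and from 5.12 to 5.97 in cholesterol-fed WT livers. With chow it ranged from 4.37 to 4.79 in Lats2-CKO and from 5.14 to 5.69 in WT livers. The genotypes did not overlap in either diet, where 3.37% (cholesterol-fed) and 7.36% (chow-fed) of all genes were lower without overlap. Over both diets the Lats2 difference was -0.72 ± 0.16 (SE, 6 arrays against 6) and did not pass (limma adjusted p = 0.486). Chow-fed WT liver 3 stood apart from its group, with a mean correlation over genes of 0.981 with the other 2 livers of that group and 0.987 with the cholesterol-fed WT livers. The array medians fell into a higher set of 6 arrays (3.481 to 3.495) and a lower set of 6 (3.423 to 3.434), with 1 array of each cholesterol-fed group in the higher set and 1 of each chow-fed group in the lower. All 4 arrays of replicate number 1 lay in the higher set and all 4 of number 3 in the lower.

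Interferons are cytokines released on infection or tissue damage. Type I interferons act through the receptor chains Ifnar1 and Ifnar2 and a complex that includes Stat2 and Irf9 and binds the interferon-stimulated response element (ISRE), while interferon gamma acts through Ifngr1 and Ifngr2 on genes that carry the gamma-activated site (GAS). The induced genes encode sensors of foreign nucleic acid, effectors that block viral growth, factors that amplify the response and inhibitors that end it. In liver, hepatocytes, Kupffer cells and endothelial cells can all respond to interferon.

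The ISRE is shown first because it is the element through which many of these genes are known to be induced. RefSeq promoters (mouse build GRCm38.p6, from 250 bases before to 50 after a gene's start) were found for 23 of the 32 measured members, and 5 of these had more than 1. The ISRE core was searched on both strands as GAAA, any 2 letters, GAAA. It occurred in promoters of 13 of the 23 genes (56.5%), against 1079 of 27025 genes in the table (3.99%). The GAS, searched as TTC, any 3 letters, GAA, which reads the same on both strands, occurred in 6 of the 23 (26.1%), against 2582 of 27025 (9.55%). Those 6 were Ifit2, Irf1, Bst2, Ifi35, Eif2ak2 and Ifitm3. A match is a run of letters and not a shown binding site.

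Counted from the gene's start, with negative positions before it, the 21 ISRE core matches began between -222 (Stat2) and 32 (Ifih1), and 15 of them lay before the start. Matches overlap one another in the Isg15, Bst2 and Gbp3 promoters. No promoter was matched for Mx1, Mx2, Oas2, Usp18, Dhx58, Zbp1, Parp14, Rtp4 and Ifi204. For each of the 13 genes the match farthest upstream is printed 5′ to 3′ on the strand that reads GAAA first, with the core in capitals.
Ddx58: ggccatagGAAATCGAAActgcctca
Ifih1: agagaatcGAAACAGAAAccgatctg
Eif2ak2: tccgccggGAAAACGAAAcagaagag
Stat2: agggaaagGAAACTGAAAccagggtg
Isg15: tgccgtagGAAAAGGAAAccgaaaca
Oas3: agggaggaGAAAACGAAAgtgaaggg
Ifit1: tgagactgGAAAGTGAAActgaagcc
Ifit3: cagaagagGAAAGTGAAActtaccac
Gbp3: gggaaataGAAACTGAAActgtgtcc
Rsad2: tgttttctGAAAATGAAAgttggacc
Bst2: cattccagGAAAATGAAActgaaagg
Ifitm3: aaattcagGAAAAGGAAActtctgag
Trim30a: ggaactgaGAAAAAGAAActaaagaa

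Whole promoters are shown for a pair of members, given below with their values on every array, 1 with both motifs and 1 with the GAS alone, and capitals mark every match. That of Eif2ak2 (chr17:78882523-78882822, minus strand) holds a GAS that begins at position -178 and an ISRE core that begins at 18. That of Irf1 (chr11:53769764-53770063, plus strand) is not among those with an ISRE core and holds a GAS that begins at position -90.
Eif2ak2: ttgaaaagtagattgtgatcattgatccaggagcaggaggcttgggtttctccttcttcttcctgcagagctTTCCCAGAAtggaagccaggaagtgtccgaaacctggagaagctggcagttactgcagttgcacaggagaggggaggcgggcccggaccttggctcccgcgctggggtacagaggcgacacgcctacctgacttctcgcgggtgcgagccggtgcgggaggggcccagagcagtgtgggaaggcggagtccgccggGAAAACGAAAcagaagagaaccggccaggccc
Irf1: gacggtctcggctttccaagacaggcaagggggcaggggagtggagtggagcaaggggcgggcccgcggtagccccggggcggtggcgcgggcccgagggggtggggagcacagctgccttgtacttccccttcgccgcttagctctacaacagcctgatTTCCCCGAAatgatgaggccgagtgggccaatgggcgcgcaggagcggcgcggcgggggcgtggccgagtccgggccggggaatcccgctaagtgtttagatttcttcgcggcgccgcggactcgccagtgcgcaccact

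Across the 12 livers the interferon-stimulated genes were high in 1 animal more than in any group. In cholesterol-fed Lats2-CKO liver 2, 25 of the 32 members had their highest value of all 12 arrays, where 4.76% of all genes did. All 32 members read higher in it than the mean of the other 2 livers of its group, where 47.3% of all genes did. For 19 members this excess was at least 2-fold, against 0.942% of all genes. The members' median excess was 1.12 on the log2 scale, against -0.01 over all genes. Part of this came from a low liver 1. Relative to each member's mean over 12 arrays, the median level was -0.41, 0.8 and -0.03 in livers 1, 2 and 3. The excess of single genes below is taken on the same basis.

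The mean level of the 32 members, each taken relative to its own mean over all arrays, was -0.37, 1.07 and -0.02 in cholesterol-fed Lats2-CKO livers 1, 2 and 3 and -0.23, 0.18 and 0.05 in their chow-fed counterparts. In WT livers it was -0.16, -0.06 and -0.05 with cholesterol feeding and 0.11, -0.09 and -0.43 with chow. Apart from the 1 liver at 1.07, the groups overlapped between -0.43 and 0.18. The low end was held by chow-fed WT liver 3, which had the lowest value of 7 members, and by cholesterol-fed Lats2-CKO liver 1, which had that of 9.

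Of the 7 members that peaked in another liver, Ifit3, Isg15, Irf9, Xaf1 and Ifi35 did so in chow-fed Lats2-CKO liver 2, Eif2ak2 in chow-fed Lats2-CKO liver 3, and Ifi204 in cholesterol-fed WT liver 2. Over all genes, cholesterol-fed Lats2-CKO liver 2 did not stand apart: its mean correlation with the other 2 livers of its group was 0.988, where theirs were 0.986 and 0.99.

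**Figure D1:**
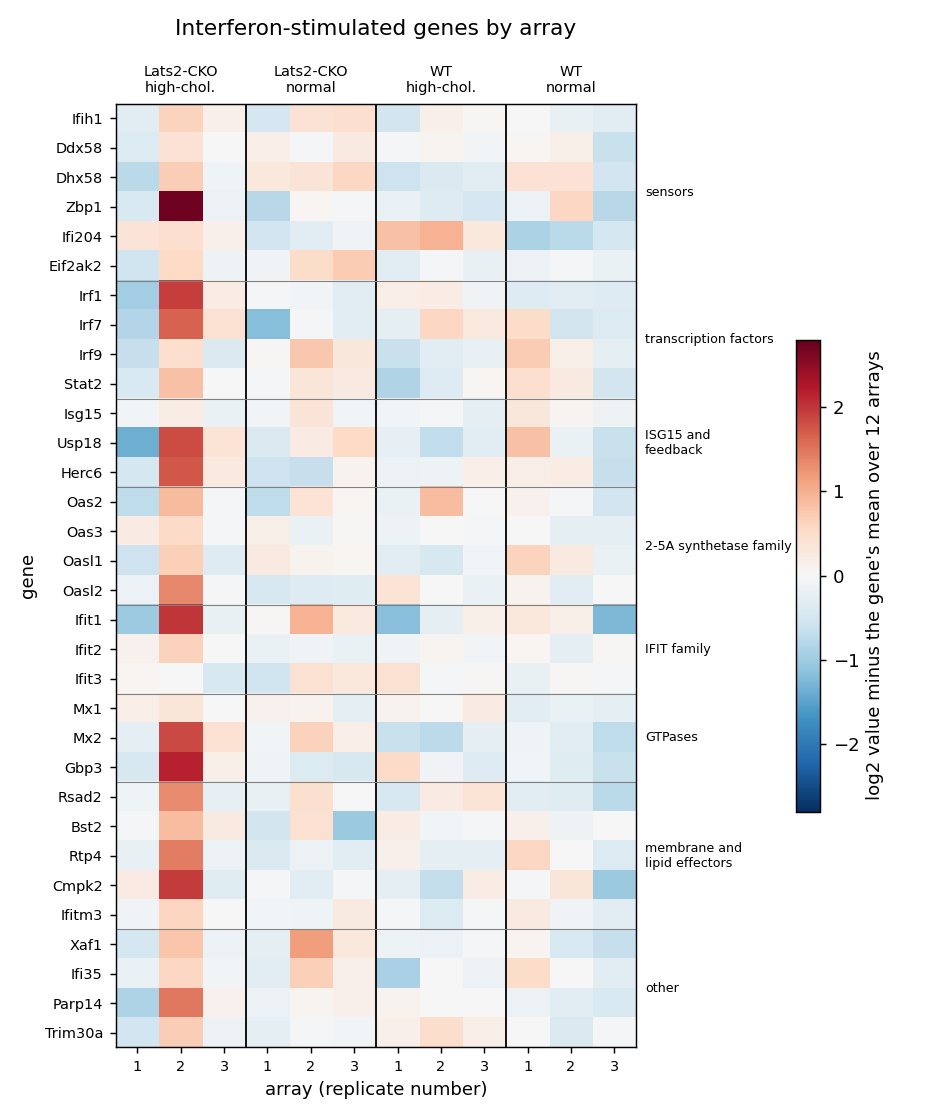
Level of each of the 32 measured interferon-stimulated genes (rows, grouped by role) on each array (columns, in 4 groups), as the log2 value minus the gene's mean over 12 arrays, on a colour scale. Replicate 2 of the Lats2-CKO high-cholesterol group is the highest array for 25 genes.

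Markers of other cells were read beside this excess. In cholesterol-fed Lats2-CKO livers 1, 2 and 3 the mean relative level of 14 macrophage and Kupffer cell markers was -0.33, 0.35 and 0.28, so liver 2 lay close to liver 3. In liver 2, 11 of the 14 lay above the mean of the other 2 livers of the group, with a median excess of 0.47. In liver 3, 13 of the 14 did, with a median of 0.24. The 11 T cell and NK cell markers stood at 0.01, 0.07 and -0.14, and 4 of the 11, Cd3d, Cd4, Klrb1c and Gzmb, were dim, meaning a mean below the 30th percentile of all values (3.048). The 4 plasmacytoid dendritic cell markers other than Bst2, itself a member, stood at -0.04, -0.03 and 0.02. The 5 endothelial markers stood at 0.03, -0.48 and -0.19, which made liver 2 the lowest of all 12 for them.

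The lists for hepatocytes, monocytes and phagocytes, neutrophils and B cells read -0.06, 0.19, 0.07 and -0.18 in cholesterol-fed Lats2-CKO liver 2, each within the range of the other 11 arrays. The part of any of these cells in the members' excess was not tested. In whole liver, fewer cells of a type and less RNA per cell cannot be told apart.

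**Figure D2:**
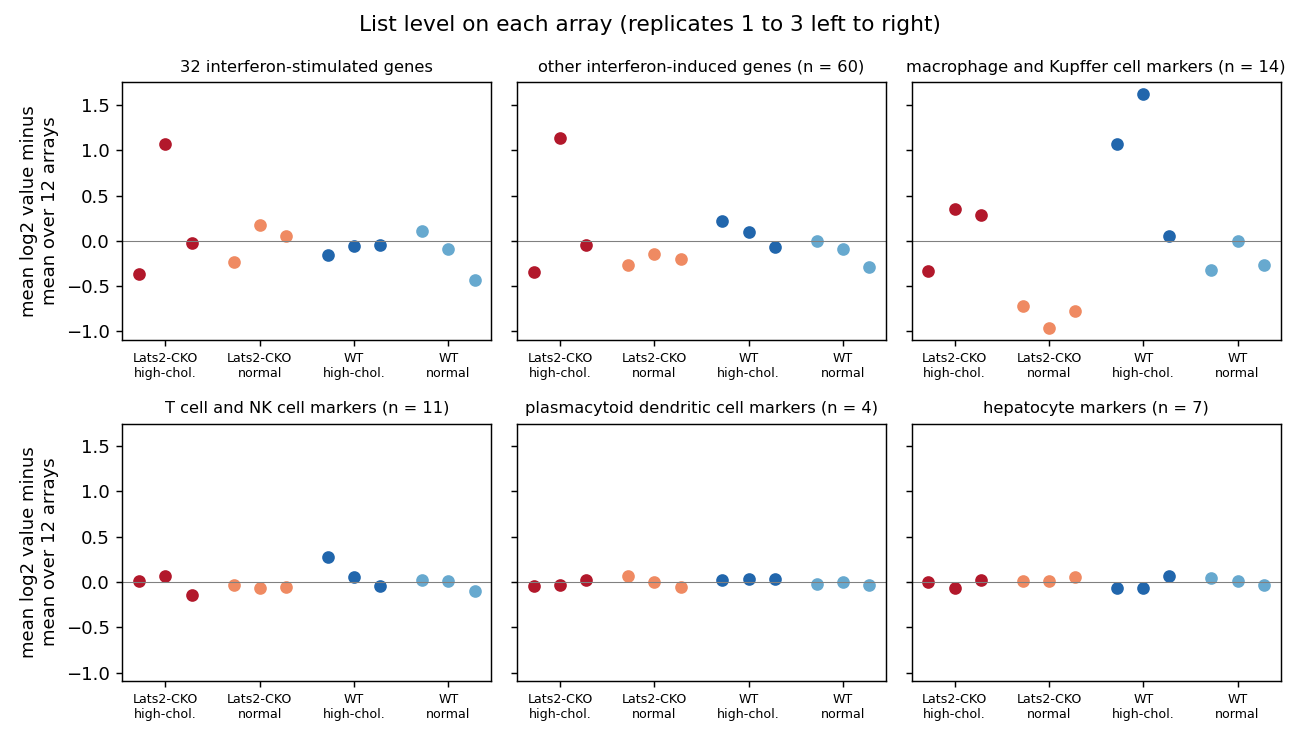
Mean level of 6 gene lists on each array (points, in 4 groups), as log2 values relative to each gene's mean over 12 arrays. The panels of interferon-stimulated and other interferon-induced genes peak in cholesterol-fed Lats2-CKO liver 2 (1.07 and 1.14), and that of macrophage and Kupffer cell markers in cholesterol-fed WT liver 2 (1.62).

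Among the 6 sensors the excess in cholesterol-fed Lats2-CKO liver 2 ran from 0.21 to 3.03 and was largest for Zbp1, which senses nucleic acid in the left-handed Z form and can start necroptosis. Zbp1 read 5.21, 8.38 and 5.49 in cholesterol-fed and 4.86, 5.69 and 5.6 in chow-fed Lats2-CKO livers. In WT livers it read 5.47, 5.29 and 5.17 with cholesterol feeding and 5.48, 6.23 and 4.88 with chow. Only the 8.38 of liver 2 lay outside the span of the other groups. Ddx58, Ifih1 and Dhx58, relatives that sense or modulate sensing of viral RNA, had an excess of 0.6, 0.7 and 1.14 there.

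Eif2ak2, the kinase that halts translation when it binds double-stranded RNA, had its 3 highest values in Lats2-CKO livers. It read 4.44, 5.56 and 4.86 in cholesterol-fed Lats2-CKO livers, against 4.68, 4.97 and 4.79 in cholesterol-fed WT livers. With chow it read 4.9, 5.52 and 5.72 in Lats2-CKO and 4.84, 4.94 and 4.82 in WT livers. The genotypes overlapped in both diets.

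All 4 transcription factors of the list were higher in cholesterol-fed Lats2-CKO liver 2 than in the other 2 livers of its group, by 0.99 to 2.33. Irf1, which interferon gamma induces, read 4.81, 7.74 and 6.01 in cholesterol-fed Lats2-CKO livers, against 5.75, 5.71 and 5.47 with chow. In WT livers it read 5.98, 6 and 5.69 with cholesterol feeding, against 5.43, 5.5 and 5.44 with chow. The WT diets did not overlap, and the difference did not pass, at 0.43 ± 0.52 (SE, 3 arrays against 3; limma adjusted p = 0.826).

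Irf7, which amplifies type I interferon production, read 5.55, 8.03 and 6.81 in cholesterol-fed Lats2-CKO livers, against 5.19, 6.34 and 6.07 with chow. WT livers had 6.13, 6.96 and 6.65 with cholesterol feeding, against 6.89, 5.86 and 6 with chow. The diets overlapped in both genotypes, and the lowest of the 12 values was in a chow-fed Lats2-CKO liver.

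Stat2 and Irf9 are partners in the complex that binds the ISRE. Stat2 read 7.01, 8.27 and 7.43 in cholesterol-fed Lats2-CKO livers, against 7.41, 7.78 and 7.69 with chow. In WT livers Stat2 read 6.61, 7.09 and 7.49 with cholesterol feeding, against 7.92, 7.69 and 6.92 with chow, and it overlapped between diets in both genotypes.

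Irf9 tended to lower values with cholesterol feeding, without passing the test. It read 6.3, 7.41 and 6.54 in cholesterol-fed Lats2-CKO livers, against 6.96, 7.68 and 7.25 with chow, and 6.31, 6.64 and 6.72 in cholesterol-fed WT livers, against 7.65, 7.1 and 6.66 with chow. Cholesterol-fed Lats2-CKO liver 2 and chow-fed WT liver 3 were the livers that overlapped the other diet of their genotype. Over both genotypes the difference was -0.56 ± 0.22 (SE, 6 arrays against 6; limma adjusted p = 0.214). It was -0.73 ± 0.19 without the first of these livers (limma adjusted p = 0.118) and -0.68 ± 0.22 without the second (adjusted p = 0.0913). Leaving out a liver that overlaps enlarges the difference by its choice. Without chow-fed WT liver 1 the difference was -0.43, the smallest with any 1 array left out.

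In the Isg15 system, Usp18 takes the ubiquitin-like Isg15 off proteins and shuts off signalling at the type I receptor. It read 5.53, 8.74 and 7.28 in cholesterol-fed Lats2-CKO livers, against 6.5, 7.13 and 7.47 with chow. WT livers had 6.67, 6.21 and 6.59 with cholesterol feeding, against 7.72, 6.73 and 6.29 with chow. The highest and the lowest of the 12 values were both in cholesterol-fed Lats2-CKO livers, with an SD of 1.6 in that group. Herc6, a ligase for Isg15 in mice, averaged 6.69 ± 1.13 in cholesterol-fed Lats2-CKO and 6.15 ± 0.2 in cholesterol-fed WT livers (SD, n = 3 each), and Isg15 stayed between 3.36 and 4.01 on all 12 arrays.

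The oligoadenylate synthetases make the signal that activates the antiviral nuclease RNase L, and all 4 measured family members peaked in cholesterol-fed Lats2-CKO liver 2. Oasl2, an antiviral relative with a ubiquitin-like tail, read 3.75, 5.26 and 3.88 in cholesterol-fed Lats2-CKO livers, against 3.48, 3.56 and 3.59 with chow. In WT livers Oasl2 read 4.31, 3.92 and 3.74 with cholesterol feeding, against 4.02, 3.61 and 3.91 with chow. The Lats2-CKO diets did not overlap and the WT diets did. The Lats2-CKO diet difference was 0.76 ± 0.33 (SE, 3 arrays against 3; limma adjusted p = 0.342) and 0.28 ± 0.17 without liver 2.

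Oas3 read 3.53, 3.82 and 3.27 in cholesterol-fed Lats2-CKO and 3.16, 3.28 and 3.25 in cholesterol-fed WT livers. With chow Oas3 read 3.45, 3.1 and 3.33 in Lats2-CKO and 3.31, 3.01 and 3.02 in WT livers. It overlapped between genotypes in both diets, and its mean of 3.293 lay below the median of all probe sets on every array. Oas2 and Oasl1 spanned 3.38 to 4.97 and 3.69 to 4.95 over the 12 arrays.

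The IFIT proteins bind viral RNA and block its translation. The excess of cholesterol-fed Lats2-CKO liver 2 was 2.61 for Ifit1, 0.59 for Ifit2 and 0.2 for Ifit3. Ifit2 read 3.31, 3.84 and 3.18 in cholesterol-fed Lats2-CKO livers, against 3.02, 3.09 and 3.02 with chow, which did not overlap. In WT livers Ifit2 read 3.1, 3.28 and 3.13 with cholesterol feeding, against 3.25, 2.92 and 3.23 with chow, which did, and its mean of 3.198 lay close to the dim level.

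Among the GTPases, Mx2 had the smallest p of the members between genotypes over both diets. It read 4.15, 6.24 and 4.82 in cholesterol-fed Lats2-CKO livers, against 3.78, 3.66 and 4.11 in cholesterol-fed WT livers. With chow Mx2 read 4.31, 5.03 and 4.57 in Lats2-CKO livers, against 4.28, 4.09 and 3.68 in WT livers. Within each diet all 3 Lats2-CKO values lay above all 3 WT values, by narrow margins.

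Mx1, a relative that acts on influenza-type viruses, was the 1 dim member, with a mean of 3.033. It read 3.23, 3.37 and 3.02 in cholesterol-fed Lats2-CKO livers, against 3.16, 3.14 and 2.76 with chow. In WT livers Mx1 read 3.14, 3.02 and 3.26 with cholesterol feeding, against 2.72, 2.84 and 2.75 with chow. The WT diets did not overlap and the Lats2-CKO diets did. Gbp3, a guanylate-binding protein of host defence, had an excess of 2.32 in cholesterol-fed Lats2-CKO liver 2.

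All 5 effectors that act at membranes or on lipids and nucleotides peaked in cholesterol-fed Lats2-CKO liver 2. The excess was 1.5 for Rsad2, the antiviral enzyme viperin, and 2.02 for Cmpk2, a nucleotide kinase. It was 0.76 for Bst2, which tethers budding virus to the cell, and 0.66 for Ifitm3, which blocks fusion of virus with the cell. Rtp4, a chaperone of membrane receptors, read 5.64, 7.27 and 5.68 in cholesterol-fed Lats2-CKO livers, against 5.43, 5.68 and 5.53 with chow. In WT livers Rtp4 read 5.99, 5.58 and 5.56 with cholesterol feeding, against 6.42, 5.83 and 5.46 with chow, and apart from liver 2 the Lats2-CKO values stayed between 5.43 and 5.68.

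Of the remaining members, Xaf1, a pro-apoptotic partner of the apoptosis inhibitor Xiap, had its highest value with chow. It read 4.43, 5.69 and 4.76 in cholesterol-fed Lats2-CKO livers, against 4.78, 4.76 and 4.88 in cholesterol-fed WT livers. With chow Xaf1 read 4.64, 6.08 and 5.22 in Lats2-CKO livers, against 4.98, 4.49 and 4.26 in WT livers, and the genotypes overlapped in both diets. Parp14, an ADP-ribosyltransferase, Trim30a, a ubiquitin ligase, and Ifi35 had an excess of 1.85, 1.04 and 0.7 in cholesterol-fed Lats2-CKO liver 2.

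The diet comparison asked which of these genes followed cholesterol feeding, and 1 member did over both genotypes. Ifi204, of an interferon-inducible family of DNA sensors and known from macrophages, read 7.12, 7.23 and 6.91 in cholesterol-fed Lats2-CKO livers, against 6.24, 6.47 and 6.65 with chow. In WT livers it read 7.58, 7.75 and 7.07 with cholesterol feeding, against 5.88, 6.01 and 6.28 with chow. All 6 cholesterol-fed values lay above all 6 chow-fed values. Ifi204 rose with cholesterol feeding by 1.02 ± 0.13 over both genotypes (SE, 6 arrays against 6; limma adjusted p = 0.0192).

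Within a genotype its difference was 0.64 ± 0.18 in Lats2-CKO and 1.41 ± 0.18 in WT livers (SE, 3 arrays against 3; limma adjusted p = 0.154 and 0.205), and neither passed. Over both genotypes Ifi204 had a difference of 1.2 among the 6 arrays of the higher set and 0.78 among the 6 of the lower set, each with 2 arrays on 1 of its diets. Without chow-fed WT liver 2 it was 1.01 ± 0.14 and missed the threshold (limma adjusted p = 0.0667). Without cholesterol-fed Lats2-CKO liver 2 it was 0.99 ± 0.14 (adjusted p = 0.0489), and without chow-fed WT liver 3 it was 1.08 ± 0.13 (adjusted p = 0.00167). Ifi204 lies in a cluster of near-identical genes and is also named by 1 probe set with several symbols, so its value is uncertain between relatives.

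Macrophage and Kupffer cell markers moved with the same diet. Their mean relative level was -0.33, 0.35 and 0.28 in cholesterol-fed Lats2-CKO livers, against -0.72, -0.96 and -0.77 with chow, and 1.07, 1.62 and 0.05 in cholesterol-fed WT livers, against -0.32, 0 and -0.27 with chow. The diets did not overlap within either genotype. All 14 markers had higher fitted values with cholesterol feeding over both genotypes, where 44.7% of all genes did, with a median difference of 1.02. Clec4f, Cd5l, C1qb and Mpeg1 passed by limma, where 0.365% of all genes passed as higher. None of the 14 was dim, and cholesterol-fed WT liver 2 was the highest of 12 both for this list and for Ifi204. The part of these cells in the Ifi204 difference was not tested.

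**Figure D3:**
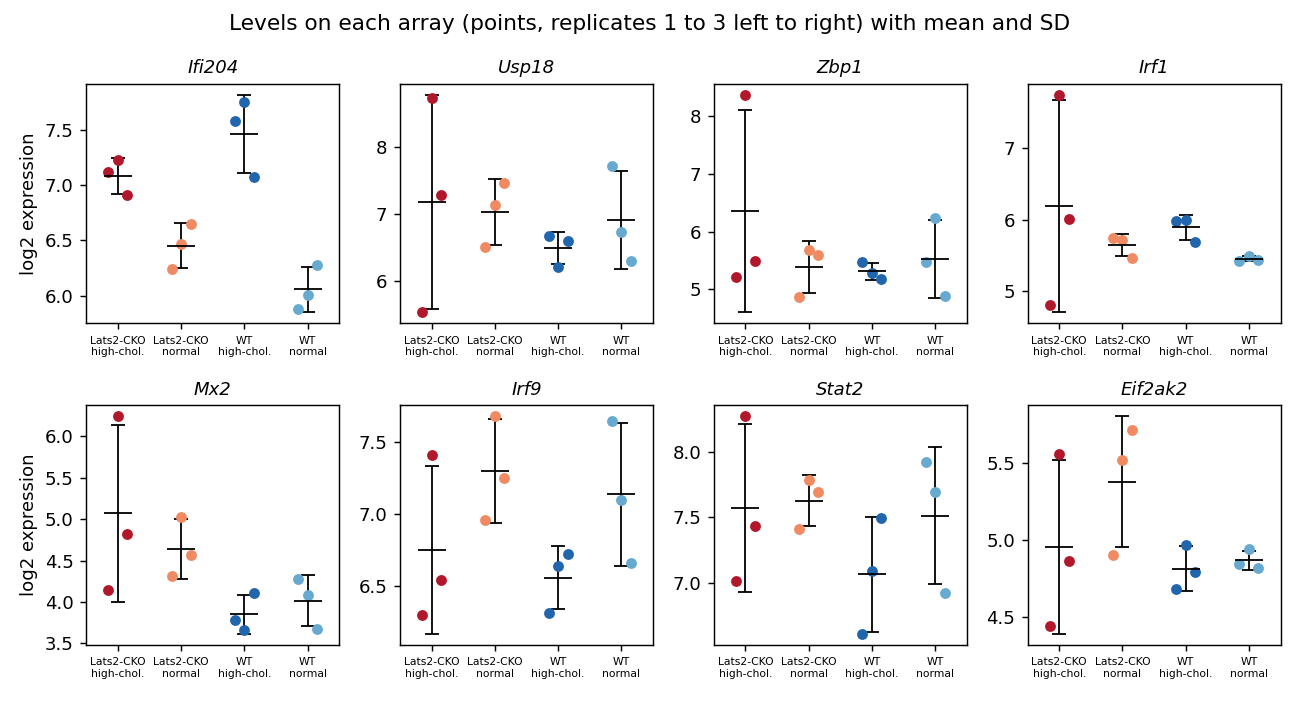
Log2 expression of 8 interferon-stimulated genes on each array (points) with the mean and SD of each group of 3. Ifi204 separates the diets in both genotypes, while Usp18, Zbp1 and Irf1 have 1 high point in the Lats2-CKO high-cholesterol group (8.74, 8.38 and 7.74).

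Over both genotypes 1 of 32 members passed for diet by limma, where 1.24% of all genes passed and 0.365% passed as higher. That member, Ifi204, was also the only one whose diets did not overlap, where 0.379% of all genes were higher without overlap. At an unadjusted p below 0.05, 2 members were higher and 1 was lower, against 7.56% and 10.4% of all genes. Mx1, the second of those higher, had a difference of 0.28 ± 0.09 (SE, 6 arrays against 6; limma adjusted p = 0.146). The members' median difference was 0.2, with 21 of 32 above 0, where the median of all genes was -0.02 and 44.7% were above 0. Without cholesterol-fed Lats2-CKO liver 2 the median was -0.04 and 14 of 32 were above 0.

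In Lats2-CKO livers alone, 0 of 32 members passed for diet by limma, where 0.271% of all genes did. At an unadjusted p below 0.05, 4 members were higher and 0 were lower, against 6.21% of all genes as higher. The diets did not overlap for Ifi204, Ifit2 and Oasl2, all higher with cholesterol feeding, where 8.98% of all genes were. Lower without overlap were 0 members, against 10.5% of all genes. Ifit2 had a difference of 0.4 ± 0.16 (SE, 3 arrays against 3; limma adjusted p = 0.291). The members' differences ran from -0.55 (Irf9) to 0.98 (Zbp1) with a median of 0.17. Without liver 2 of the cholesterol-fed group that median was -0.22, and 8 members did not overlap. The same 3 were higher, against 12.6% of all genes, and Ifit1, Oasl1, Irf9, Dhx58 and Eif2ak2 were lower with cholesterol feeding, against 14.6% of all genes.

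In WT livers alone, 0 of 32 members passed for diet by limma, as did 0% of all genes. At an unadjusted p below 0.05, Ifi204 and Mx1 were higher and 0 were lower, against 4.03% of all genes as higher. Mx1 had a difference of 0.37 ± 0.13 and Irf9 one of -0.58 ± 0.31 (SE, 3 arrays against 3; limma adjusted p = 0.369 and 0.549). The diets did not overlap for 5 members, Ifi204, Mx1, Irf1, Parp14 and Trim30a, all higher with cholesterol feeding, where 4.97% of all genes were. Lower without overlap were 0 members, against 8.81% of all genes. The median was 0.04, against -0.02 over all genes.

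Ifi204 passed in WT livers once either of 2 livers was left out. Without chow-fed WT liver 3 its difference was 1.52 ± 0.2 (limma adjusted p = 0.00714), where 2.33% of all genes passed and the members' median was -0.05. In that fit the diets did not overlap for 13 members, the same 5 as higher, against 14.7% of all genes, and 8 as lower, against 21.6%. Without cholesterol-fed WT liver 3 it was 1.61 ± 0.16 (limma adjusted p = 0.0116), where 0.302% of all genes passed. In both fits it was the 1 member called.

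The genotype comparison asked whether these genes differed between Lats2-CKO and WT livers within a diet. With cholesterol feeding 0 of 32 members passed by limma, as did 0% of all genes. At an unadjusted p below 0.05, Mx2 was higher in Lats2-CKO livers and 0 were lower, against 0.987% of all genes as higher. Mx2 was also the 1 member whose genotypes did not overlap, where 4.07% of all genes were higher and 3.37% lower without overlap. Its difference was 1.22 ± 0.42 (SE, 3 arrays against 3; limma adjusted p = 1), and 0.63 ± 0.27 without cholesterol-fed Lats2-CKO liver 2.

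Oas3 and Ifi204 had the next smallest p in cholesterol-fed livers, with differences of 0.31 ± 0.15 and -0.38 ± 0.18 (SE, 3 arrays against 3; limma adjusted p = 1 for both). The members' median difference was 0.29, with 28 of 32 above 0, where the median of all genes was 0.01 and 52% were above 0. Without cholesterol-fed Lats2-CKO liver 2 the median was -0.11 and 11 of 32 were above 0. That 1 liver thus turned the sign of the members' median both here and for diet in Lats2-CKO livers. Liver 1 of the same group moved both medians the other way. Without it they were 0.51 here and 0.47 for diet in Lats2-CKO livers.

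**Figure D4:**
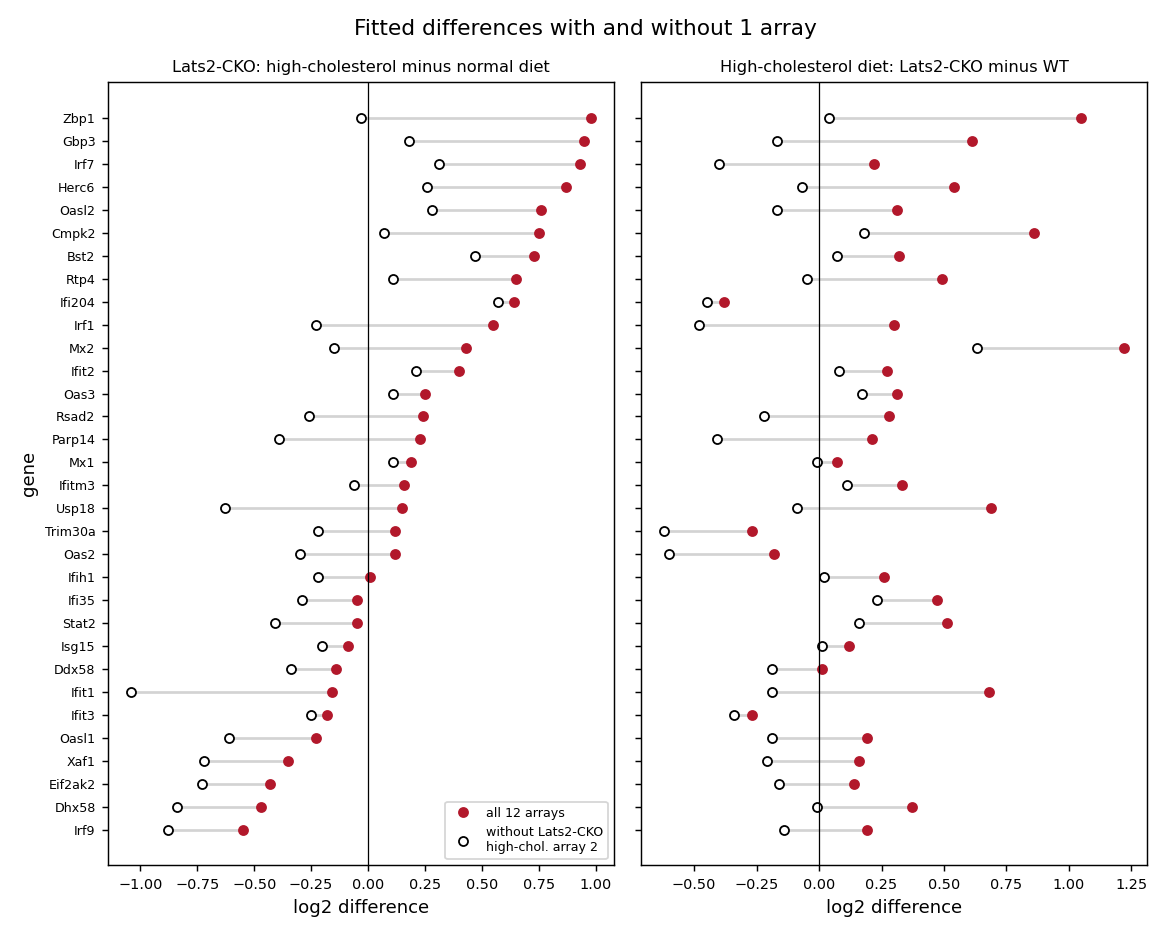
Fitted log2 difference of each of the 32 genes with all 12 arrays (filled) and without replicate 2 of the Lats2-CKO high-cholesterol group (open), for diet in Lats2-CKO livers (left) and for genotype on the high-cholesterol diet (right). Without that array the medians are -0.22 and -0.11, where with it they are 0.17 and 0.29.

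With chow 0 of 32 members passed between genotypes by limma, where 0.0135% of all genes did, and 0 had an unadjusted p below 0.05, against 8.99% of all genes. Mx2 and Rsad2 were higher in all 3 Lats2-CKO livers than in all 3 WT livers, where 5.96% of all genes were, and Oasl2 was lower, where 7.36% were. Ifi204, Xaf1 and Eif2ak2 had differences of 0.4 ± 0.18, 0.74 ± 0.37 and 0.51 ± 0.26 (SE, 3 arrays against 3; limma adjusted p = 0.562, 0.608 and 0.615). The median difference was 0.12, against 0 over all genes, and -0.06 without chow-fed WT liver 3.

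Over both diets 0 of 32 members passed between genotypes by limma, where 0.00451% of all genes did. Mx2 and Oas3, the latter of low signal, had an unadjusted p below 0.05, both with higher values in Lats2-CKO livers, against 2.2% of all genes as higher. Mx2 had a difference of 0.92 ± 0.3, Oas3 one of 0.24 ± 0.1 and Eif2ak2 one of 0.33 ± 0.19 (SE, 6 arrays against 6; limma adjusted p = 0.742, 0.83 and 0.858). In 0 members did the 6 Lats2-CKO livers lie apart from the 6 WT livers, where 0.23% of all genes did.

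The members' median genotype difference over both diets was 0.22, and 0 without cholesterol-fed Lats2-CKO liver 2. Fitted values were lower in Lats2-CKO livers for each of 14 macrophage and Kupffer cell markers, with a median of -0.74, and 0 passed by limma, while 9 were lower at an unadjusted p below 0.05, against 3.77% of all genes.

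Whether the diet response differed between genotypes was tested as the interaction, the diet difference in Lats2-CKO livers minus that in WT livers. By limma 0 of 32 members passed, where 0.00451% of all genes did, and Ifi204 alone had an unadjusted p below 0.05, against 2.25% of all genes as lower. Its interaction was -0.78 ± 0.26 (SE, 12 arrays; limma adjusted p = 0.752), so a smaller diet difference in Lats2-CKO livers was not shown. Ifit2 and Rtp4 had interactions of 0.37 ± 0.22 and 0.85 ± 0.54 (limma adjusted p = 0.931 and 0.94). The members' median interaction was 0.13, and -0.2 without cholesterol-fed Lats2-CKO liver 2.

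The genes of the interferons and their receptors were read next. Of these 15, all measured, 0 passed in any of the 7 contrasts by limma. Ifnb1, Ifng and Ifnlr1 were dim on average, with Ifnb1 between 2.51 and 2.83 and Ifng between 2.73 and 3.32 on the 12 arrays. In cholesterol-fed Lats2-CKO liver 2 the list had a mean relative level of 0.01, inside the -0.17 to 0.19 of the other arrays. Ifng had its highest value there and Ifnb1 its lowest.

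Ifngr1, a chain of the interferon gamma receptor, had the smallest p of the list in 4 contrasts. It read 8.55, 8.22 and 8.39 in cholesterol-fed Lats2-CKO livers, against 8.28, 8.81 and 9.13 with chow. In WT livers Ifngr1 read 9.2, 8.98 and 8.62 with cholesterol feeding, against 8.16, 7.96 and 8.23 with chow. The WT diets did not overlap and the Lats2-CKO diets did, and the interaction was -1.17 ± 0.3 (SE, 12 arrays; limma adjusted p = 0.744). Ifnar2, a chain of the type I receptor, had a diet difference of 0.33 ± 0.11 over both genotypes, and Il10rb, shared by the type III receptor, a genotype difference of -0.38 ± 0.16 over both diets (limma adjusted p = 0.162 and 0.829).

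Of 21 signalling and sensing adaptor genes 18 were measured, and 0 passed in any contrast by limma. Irf2, which competes with Irf1 for its sites, had a diet difference of 0.37 ± 0.09 over both genotypes (limma adjusted p = 0.0671). Tbk1, the kinase that activates Irf3, had a genotype difference of 0.8 ± 0.24 with chow, and the kinase Jak2 one of -0.38 ± 0.24 with cholesterol feeding (limma adjusted p = 0.3 and 1). In cholesterol-fed Lats2-CKO liver 2, 16 of the 18 lay above the mean of the other 2 livers of the group, where 47.3% of all genes did. Their median excess was 0.6. In liver 1 of that group 1 of the 18 lay above the mean of the other 2, with a median of -0.56.

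A further list of 65 interferon-induced genes, of which 60 were measured, was high in the same liver. In cholesterol-fed Lats2-CKO liver 2, 58 of the 60 lay above the mean of the other 2 livers of the group, where 47.3% of all genes did. At least 2-fold above it were 30, against 0.942% of all genes, and 39 had their highest value of all 12 arrays, against 4.76%. The 4 genes given next were chosen after their values were seen. Cxcl10, a chemokine for activated T cells, read 3.27, 7.66 and 3.26 in cholesterol-fed Lats2-CKO livers and 3.05 to 3.77 in the 9 livers of the other groups. Cxcl9, a chemokine known as a target of interferon gamma, read 7.72, 11.65 and 7.89 in cholesterol-fed Lats2-CKO livers and 6.98 to 10.17 in the others. Liver 2 was the highest of 12 for both.

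Igtp, a GTPase of interferon gamma responses, read 7.5, 11.39 and 8.14 in cholesterol-fed Lats2-CKO livers and 6.61 to 8.48 in the other groups. Tap1, a peptide transporter of MHC class I presentation, read 5.57, 8.76 and 6.33 in cholesterol-fed Lats2-CKO livers and 6.23 to 7.17 in the other groups. The excess of liver 2 was 4.4 for Cxcl10, 3.85 for Cxcl9, 3.56 for Igtp and 2.81 for Tap1.

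For diet in WT livers, 19 of these 60 genes were higher without overlap and 2 lower, against 4.97% and 8.81% of all genes. In Lats2-CKO livers 8 were higher and 0 lower, against 8.98% and 10.5%. Over both genotypes 15 were higher and 0 lower at a limma unadjusted p below 0.05, against 7.56% and 10.4%. Of the 60, Ly6e and Ccl5 passed in a contrast by limma. Both passed as higher for diet over both genotypes, where 0.365% of all genes did. Ly6e also passed for diet in Lats2-CKO livers, where 0.271% of all genes did. Ly6e, a membrane protein that limits virus entry, read 9.75, 10.61 and 9.93 in cholesterol-fed Lats2-CKO livers, against 8.98, 8.38 and 8.81 with chow. In WT livers Ly6e read 10.08, 9.83 and 9.72 with cholesterol feeding, against 9.57, 9.23 and 9.54 with chow, and the diets did not overlap in either genotype. Ly6e rose with cholesterol feeding in Lats2-CKO livers by 1.37 ± 0.22 (SE, 3 arrays against 3; limma adjusted p = 0.0332) and over both genotypes by 0.9 ± 0.16 (adjusted p = 0.036). With each of the 12 arrays left out in turn, the Lats2-CKO difference stayed between 1.12 and 1.54 and missed the threshold in 7 of 12 fits, and the average stayed between 0.77 and 0.99 and missed it in 8.

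Ccl5, a chemokine for T cells and monocytes, read 5.35, 6.88 and 5.7 in cholesterol-fed Lats2-CKO livers, against 4.25, 4.38 and 4.7 with chow. In WT livers Ccl5 read 7.56, 7.04 and 6.48 with cholesterol feeding, against 5.52, 5.22 and 5.59 with chow. The diets did not overlap within either genotype, and Ccl5 rose with cholesterol feeding over both by 1.56 ± 0.25 (SE, 6 arrays against 6; limma adjusted p = 0.0301). With each array left out in turn it stayed between 1.33 and 1.71 and missed the threshold in 7 of 12 fits. Aim2, a DNA sensor related to Ifi204, had a diet difference of 0.77 ± 0.16 in WT livers (limma adjusted p = 0.307).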

How the data were processed

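Total RNA of 12 livers was hybridised to 1-colour Affymetrix arrays. The authors deposited log2 values per probe set, made with RMA in Partek 6.6 per the submitters' processing notes, and the log2 scale follows from their range (1.94 to 14.16). No raw intensities were used here. Of 41345 probe sets, 23521 carried 1 gene symbol, 1814 several and 16010 none. Symbols were updated through RefSeq gene identifiers, and the probe set with the highest mean stood for each of 22180 genes. One limma 3.58.1 fit (R 4.3.3) of 4 group means over 12 arrays gave 7 contrasts, with Benjamini-Hochberg adjustment over all genes and a threshold of 0.05. It was tested on simulated data. Precision is limited by the number of arrays. Values on every array are given for members past the threshold, the 3 of smallest p per contrast, and Stat2, Irf1, Irf7, Irf9 and Usp18, and from other pathway lists genes past the threshold or of smallest p are named. Zbp1 was added after its values were seen. Members and lists were chosen with earlier results of these data known.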

Additional observations from a re-analysis of the deposited data

How the results depend on the processing

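Of 905 values recomputed under the alternatives, 861 were scored as kept, 38 as moved and 1 as reversed. Of the rest, 4 passed the threshold only under the alternative and 1 missed it. Members were scored on direction and on side of the threshold or size, and counts on their ratio. A median moved if it shifted by at least 0.34, the pooled within-group SD of the arrays' median member level. Cholesterol-fed Lats2-CKO liver 2 itself widens that SD, so a kept median says little. Only a median above 0.34 in size could be reversed, and the largest was 0.29. Smaller sign changes of a median counted as kept, as for diet over both genotypes (0.2, and -0.04 without that liver). With the array set as a block and chow-fed WT liver 3 left out, 1 member passed for diet in WT livers, with a median of -0.33, and 2 passed for diet over both genotypes, Ifi204 and Dhx58 (-0.9 ± 0.2, limma adjusted p = 0.0333). The share of all genes was not counted there, and with no block 1605 of 22180 passed for the latter. The 2 are therefore not read as a result about the members. Within an array set each cholesterol-fed group (higher set) or chow-fed group (lower set) was a single liver. Among these were cholesterol-fed Lats2-CKO liver 1 and chow-fed WT liver 3. Within the higher set the medians were -0.27 for diet in Lats2-CKO livers, -0.26 for genotype with cholesterol feeding, -0.23 for diet and -0.13 for genotype over both strata. Within the lower set the median for genotype with chow was 0.56, and Irf9 changed sign for diet in WT livers, at 0.02. With array weights Ifi204 alone passed for diet in WT livers (1.35 ± 0.18, limma adjusted p = 0.0485), again with all genes not counted. After quantile normalisation 6 members were higher without overlap in chow-fed Lats2-CKO livers, against 6.01% of all genes, and 1, Mx2, over both diets, against 0.104%. Fitting only the groups compared and a trended robust prior keep every difference. Leaving out dim genes and averaging probe sets affect 1 member's difference each. These, median centring and the array set as a block with all arrays moved no value past these limits. Leaving out an array keeps differences between other groups, which count as kept. The cause of each shift was not tested.

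With each array left out in turn, the medians ranged from -0.22 to 0.47 for diet in Lats2-CKO livers, -0.05 to 0.14 for diet in WT livers, -0.11 to 0.51 for genotype with cholesterol feeding, -0.06 to 0.22 for genotype with chow, -0.04 to 0.27 for diet over both genotypes, 0 to 0.32 for genotype over both diets and -0.2 to 0.44 for the interaction. Members called numbered 0 to 1 for diet in WT livers (0 to 516 of all 22180 genes). They numbered 0 to 1 for diet over both genotypes (6 to 1605) and 0 in the other 5 contrasts (0 to 468). The members without overlap, in either direction, numbered 3 to 8 for diet in Lats2-CKO livers (19.5% to 33% of all genes), 5 to 13 for diet in WT livers (13.8% to 36.4%) and 1 to 10 for genotype with cholesterol feeding (7.44% to 19.1%). They numbered 3 to 9 for genotype with chow (13.3% to 26.3% of all genes), 1 for diet over both genotypes (1.57% to 6.12%) and 0 to 1 for genotype over both diets (0.289% to 0.541%). The 10 came without cholesterol-fed Lats2-CKO liver 1, all higher in Lats2-CKO livers, against 9.46% of all genes. The 9 came without chow-fed Lats2-CKO liver 1, with 8 higher and 1 lower, against 11.4% and 13.9%.

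Deviations from group means correlated at a median of -0.04 in the 36 pairs of different replicate number. In the 18 of equal number they correlated at 0 to 0.18 (median 0.07). Since not every pair was above 0.1, the numbers were not taken to pair the samples. As hints towards a tie, 9 of 12 arrays correlated best with one of their own number, and numbers 1 and 3 followed array set. With the replicate number as a block Ifi204 had a diet difference of 1.02 ± 0.13 over both genotypes (limma adjusted p = 0.0325), and no count of members called changed. With 3 arrays a group, 1 liver can set a group's mean, and a dim member such as Mx1 has little range below its values.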
